A study of Mus musculus with 12 samples.

Results

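Transcripts of 10 genes used by melanocytes were followed in hair follicle stem cells (HFSCs) sorted from the back skin of mice. The genes were chosen for their known roles by a rule that uses no measured value, though with earlier results of these data known, and are Tyr, Tyrp1, Dct, Pmel, Mlana, Oca2, Slc45a2, Sox10, Mitf and Kit. All 10 are among the 21942 genes listed in either of the deposited tables, and each is listed in both tables. RNA was sequenced in 12 libraries, with 3 replicates in each of 4 groups of C57BL/6J mice, a strain with a black coat. The control libraries are labelled wildtype and come from postnatal day 70 (P70), and according to the methods control mice received ethanol. The Eed iKO libraries are labelled Eed -/- and also come from P70. They were made from K15-CrePGR: Eed fl/fl mice, treated once a day for 7 days from P50 with RU-486 at 10 mg/ml in ethanol, so that the drug and the deletion cannot be told apart. This Cre is driven by the Krt15 promoter, which is active in keratinocytes of the bulge, and Eed encodes a core subunit of the Polycomb complex PRC2. The anagen libraries (P28 to P30) and the telogen libraries (P50 to P52) are both labelled wildtype and differ in age as well as in the phase of the hair cycle. The gate kept cells positive for EpCAM and CD34 and high for α6-integrin, and left out Sca1+ cells. The study describes the replicates of the Eed iKO comparison as biological and as coming from more than a single litter, without tying a replicate number to a litter. Some of these replicates may therefore share a litter. How the animals of the hair cycle groups were divided among libraries is not stated in the sources used here, so the p-values there measure the spread between libraries, which may be partly technical.

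Melanin is made in melanosomes, organelles of melanocytes, from the amino acid tyrosine. Tyrosinase (Tyr) starts the pathway, and the related enzymes Tyrp1 and Dct act further along the branch to black and brown eumelanin. Pmel builds the fibrils on which the pigment is laid down, Mlana works in the maturation of the melanosome, and Oca2 and Slc45a2 are transport proteins that set the conditions inside it. The transcription factors Mitf and Sox10 direct these genes, and Kit is the receptor through which the follicle's Kit ligand reaches melanoblasts. In hair follicles, melanocyte stem cells lie beside the HFSCs in the bulge and hair germ during telogen, and pigment is made in the hair bulb during anagen. Dct is already active in melanocyte stem cells. Mitf and Kit are also used by mast cells and other cells, so the other 7 genes and Sox10 were also summed without Mitf and Kit. They are called the 8 melanocyte-restricted genes here, although Sox10 among them is also used by Schwann cells. In these bulk libraries, fewer cells of a type and less RNA per cell cannot be told apart.

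The shared letters in front of the 3 enzyme genes are shown first, as a description. RefSeq promoter windows (GRCm38.p6) of 300 bases, 250 before the annotated start and 50 from it on, were given for 6 of the 10 genes. The motif CATGTG, the core of the M-box to which MITF is known to bind, was searched on both strands together with the longer TCATGTG that contains it and with CACGTG. The motif TCATGTG lay 22 bases before the start of Tyr, 47 bases before that of Tyrp1, and 151 and 232 bases before that of Dct, on the opposite strand at the last of these positions. The windows are printed along the strand of the gene, with each CATGTG in capitals on either strand (CACATG on the opposite strand). Tyr lies at chr7:87493463-87493762 on the minus strand, Tyrp1 at chr4:80833963-80834262 on the plus strand and Dct at chr14:118052197-118052496 on the minus strand.
Tyr: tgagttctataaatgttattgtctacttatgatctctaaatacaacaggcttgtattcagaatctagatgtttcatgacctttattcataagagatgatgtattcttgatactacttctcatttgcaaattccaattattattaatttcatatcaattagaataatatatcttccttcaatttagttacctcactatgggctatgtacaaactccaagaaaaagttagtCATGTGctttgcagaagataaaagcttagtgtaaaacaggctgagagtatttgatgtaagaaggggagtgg
Tyrp1: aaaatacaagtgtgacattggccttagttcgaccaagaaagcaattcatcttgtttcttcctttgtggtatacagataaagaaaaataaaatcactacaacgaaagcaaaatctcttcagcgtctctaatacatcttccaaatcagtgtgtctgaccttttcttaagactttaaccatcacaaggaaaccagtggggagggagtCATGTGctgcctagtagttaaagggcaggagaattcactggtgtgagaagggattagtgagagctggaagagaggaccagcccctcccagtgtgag
Dct: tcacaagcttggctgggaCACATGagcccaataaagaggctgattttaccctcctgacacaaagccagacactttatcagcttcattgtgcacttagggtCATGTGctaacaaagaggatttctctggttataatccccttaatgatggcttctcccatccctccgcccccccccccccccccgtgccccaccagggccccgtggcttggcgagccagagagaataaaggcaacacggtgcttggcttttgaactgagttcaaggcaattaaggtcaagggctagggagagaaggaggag
The longer motif is present in 3.77% of all 32851 windows and CATGTG in 14.2%. CATGTG also lay 186 bases before the start of Oca2, on the opposite strand and without the leading T. It was not in the 3 windows of Mitf or the 2 windows of Kit, and CACGTG, found in 7.15% of all windows, was in none of the windows of these 6 genes. A match of letters is a description of the window and was not tested as a binding site.

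**Figure D1:**
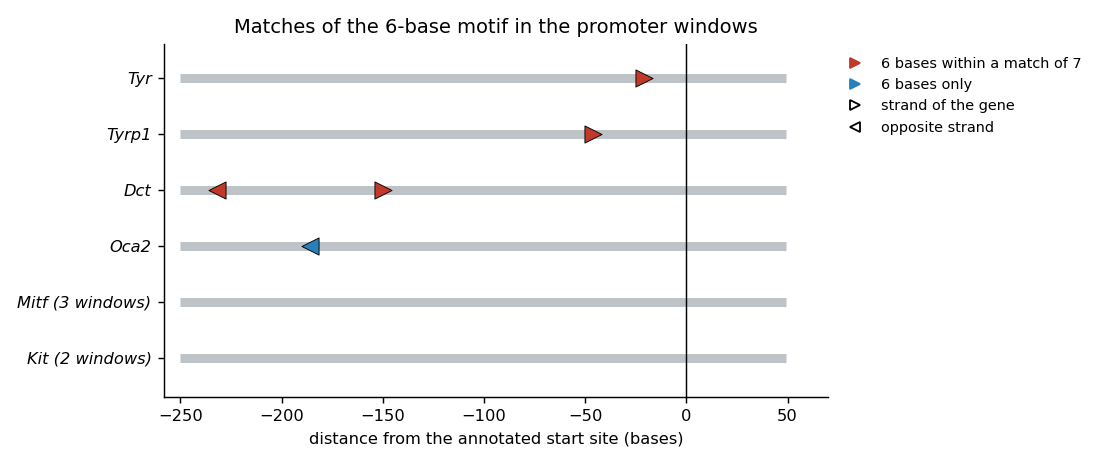
Position of the 6-base motif in the promoter windows of the 6 genes that have one, with the distance from the annotated start site in bases on the horizontal axis (grey bar, the window) and 1 row per gene, where arrowheads show the strand and red marks a match to the 7-base form. The match lies 21 bases upstream in Tyr and 46 in Tyrp1 by its first base, Dct has 2 matches, Oca2 has 1 on the opposite strand without the seventh base, and the windows of Mitf and Kit have none.

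Values are normalized counts, the counts of a gene scaled by the size factor of each library, and the Eed iKO and hair cycle tables were normalized apart, so levels are compared within a table only. The libraries of the Eed iKO table held 33269583 to 57063586 reads on genes, recovered from the values, while no depth could be recovered for the hair cycle libraries. The targeted gene Eed had normalized counts of 1084, 1249 and 950.2 in control and 933.3, 1361 and 1001 in the libraries labelled Eed iKO, so its mRNA was not lower in them by this measure, and directions given for that group rest on the labels. Other measures of Eed and of its histone mark in the study were not analysed here. The 10 bulge marker genes were all measurable in both tables, among them Cd34, the surface protein of the gate, at 31535 to 47502 normalized counts in the Eed iKO table and 2955 to 9159 in the hair cycle table. In anagen 2 of the 10 passed the adjusted test, where 11.6% of all genes did. They were Cd34, lower (log2 change -1.21, limma adjusted p = 0.00382), and the α6-integrin gene Itga6, higher (0.97, limma adjusted p = 0.014), the latter lost without anagen replicate 1 or 2. In Eed iKO, limma and edgeR had 0 of the 10 and DESeq2 had 1, with 3, 3 and 4 at an unadjusted p under 0.05. Ly6a, a gene for the Sca1 protein that the gate left out, ran from 27.1 to 170 normalized counts in the Eed iKO table and from 5.59 to 28.5 in the hair cycle table. Epidermal keratin Krt10 was at 26842 in control replicate 3 and 45520 in Eed iKO replicate 3, above the 3429 to 10739 of the other 4 libraries of that table.

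Per kb of the longest annotated transcript, the only scale on which genes are compared here, Mitf stood far above the other pigment genes in 3 of the 4 groups. In control its level was 1694 ± 170 normalized counts per kb (SD, n = 3), above 93.5% of the genes of the table, and in telogen it was 607 ± 33.2 (SD, n = 3), above 95.5%. The next in the order were Pmel at 67.8 ± 27.1 and Dct at 63.6 ± 24.1 per kb in control, which did not differ beyond their spread. Tyr at 3.26 ± 3.16, Kit at 1.75 ± 1.82, Slc45a2 at 1.24 ± 2.15 and Tyrp1 at 0.796 ± 1.38 followed in control, each with an SD as large as the gaps between them. In Eed iKO, Pmel was at 93.6 ± 52.9 and Dct at 54.5 ± 17.7 per kb, again within their spread, followed by Tyrp1 at 7.26 ± 1.75, Sox10 at 6.55 ± 7.16, Kit at 5.71 ± 6.80 and Tyr at 4.67 ± 1.94, which overlapped. In telogen, Dct at 27.8 ± 10.5 per kb stood above Pmel at 4.64 ± 3.70 and Tyrp1 at 2.45 ± 1.20, which overlapped. In anagen, Dct reached 157 ± 46.6 per kb, within the spread of Mitf at 170 ± 31.9, and the next were Pmel at 10.6 ± 5.24 and Tyrp1 at 9.80 ± 2.92, which did not differ beyond their spread. The other genes of the set lay below 4 per kb in both hair cycle groups. Pmel shares 139 of its 2292 exon bases (6.1%) with genes on the opposite strand, 105 with Dgka and 34 with Cdk2, and Dgka had 6554 ± 913 normalized counts in control against 144 ± 57.8 for Pmel. The counting is not stated to use strand, so reads of Pmel and of these partners cannot be told apart in the shared bases.

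**Figure D2:**
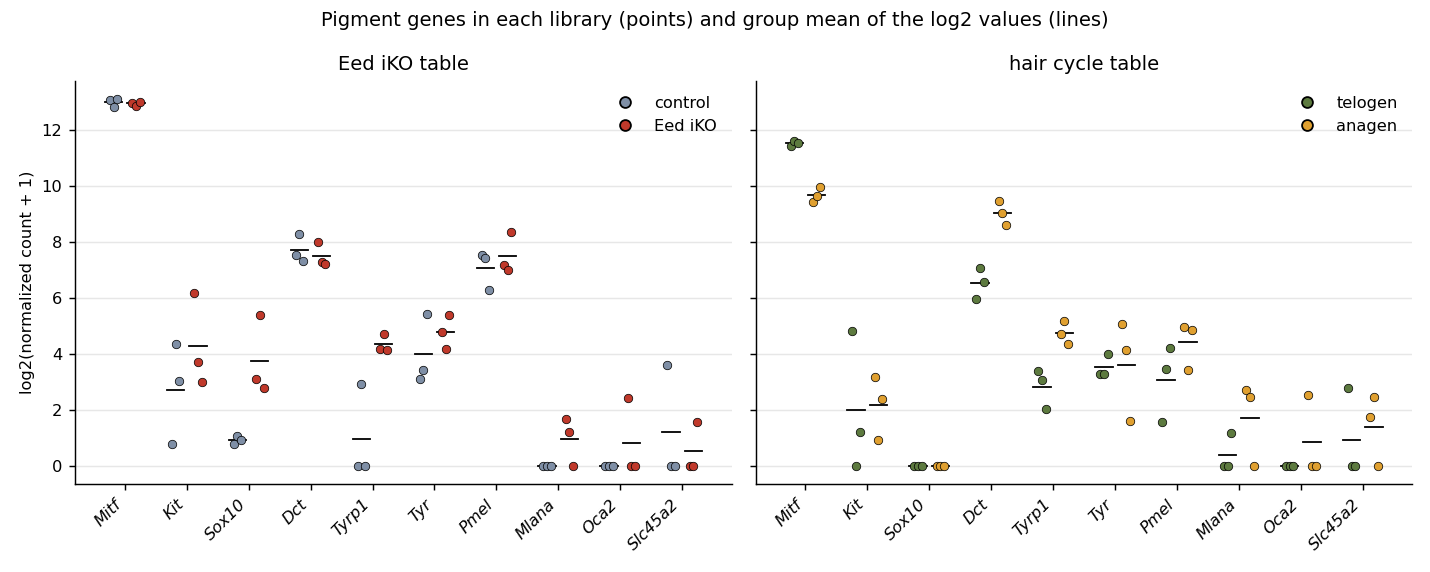
Log2(normalized count + 1) of the 10 pigment genes in each library (points, 3 per group) with the mean of the log2 values (lines), for the Eed iKO table on the left and the hair cycle table on the right. Dct rises and Mitf falls from telogen to anagen without overlap, and Mlana, Oca2 and Slc45a2 are at 0 in several libraries of each table, as Sox10 is in all hair cycle libraries.

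The first comparison asks how the pigment genes differ between HFSCs of growing and of resting follicles. Dct was 5.64-fold higher and Mitf 3.57-fold lower in anagen than in telogen by their means, and in both genes the 2 groups were apart, with no library of one inside the range of the other. Tyrp1 was 4.01-fold higher with no overlap, but did not pass the adjusted test (limma adjusted p = 0.099, and 0.049 without the intensity trend). Tyr and Pmel overlapped between the phases, and Kit, Sox10, Mlana, Oca2 and Slc45a2 were too low to be tested. With the thresholds of the methods, a log2 change past 2 up or down with an unadjusted p under 0.05, 1 of the 5 pigment genes tested was called (Dct), where 5.10% of the 13457 genes tested were called. At an adjusted p under 0.05, 2 of the 5 passed (Dct and Mitf), where 11.6% of all genes did. The groups were apart for 3 of the 5, Dct, Mitf and Tyrp1, and for 33.3% of all genes. The median log2 change of the 5 genes was 1.34, and that of all genes tested was 0.01.

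Among the regulators, Mitf (chr6:97807052-98021349, plus strand) had normalized counts of 2801, 3125 and 2963 in telogen replicates 1, 2 and 3 and 684.8, 812.7 and 995.0 in anagen replicates 1, 2 and 3. Every anagen library was below every telogen library. The log2 change was -1.85 (standard error, SE, of 0.20, adjusted p = 0.000254, limma with adjustment by the method of Benjamini and Hochberg), under the fold threshold of the methods, with a range of -1.99 to -1.72 over the fits that left out a library. Mitf has several promoters that make isoforms for different tissues, and the values are sums over the whole gene, so the melanocyte isoform cannot be told apart from the others. Kit (chr5:75574916-75656722, plus strand) had, as normalized counts, 27.1, 0 and 1.31 in telogen and 7.96, 0.902 and 4.20 in anagen. The largest Kit value was that of telogen replicate 1, and the groups overlapped. Sox10 (chr15:79154908-79165240, minus strand) was listed at 0 in all 6 hair cycle libraries. With no depth known, no limit can be set on its level.

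Dct (dopachrome tautomerase, chr14:118012790-118052244, minus strand), whose window holds the motif at 2 positions, had telogen values of 61.2, 133.5 and 94.0 normalized counts and anagen values of 709, 531 and 387. The lowest anagen library lay well above the highest telogen library. The log2 change was 2.51 (SE 0.37, limma adjusted p = 0.00187), and Dct passed both the thresholds of the methods and the adjusted test in each of the 6 fits without a library, with log2 changes of 2.22 to 2.78. Tyrp1 (chr4:80834123-80851719, plus strand) had 9.55, 7.30 and 3.12 in telogen and 25.3, 35.2 and 19.5 in anagen. Its groups were apart as well, at far lower counts than those of Dct. The log2 change was 1.92 (SE 0.69, limma adjusted p = 0.099), just short of the fold threshold, which it passed in 3 of the 6 fits without a library, those without anagen replicate 3 (2.12), telogen replicate 1 (2.20) and telogen replicate 2 (2.03). Tyr (chr7:87424771-87493512, minus strand), the enzyme on which all melanin depends, had 8.61, 8.75 and 14.96 in telogen and 32.5, 16.5 and 2.04 in anagen. Anagen replicate 3 held the lowest value and anagen replicate 1 the highest, so that Tyr varied more among anagen libraries than between the phases. Its log2 change of 0.08 (SE 0.92, limma adjusted p = 0.962) ran from -0.65 to 1.08 over the fits without a library.

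The structural and transport genes did not separate the phases. Pmel (chr10:128704195-128720238, plus strand) had telogen values of 1.93, 10.0 and 17.7 normalized counts and anagen values of 30.0, 9.82 and 28.2, with anagen replicate 2 inside the telogen range. Its log2 change was 1.34 (SE 0.85, limma adjusted p = 0.335). Mlana (chr19:29697824-29708634, plus strand) was above 0 in anagen replicates 1 and 2, at 5.59 and 4.43, and in telogen replicate 3, at 1.26. Oca2 (chr7:56239760-56536518, plus strand) was above 0 only in anagen replicate 1, at 4.72 normalized counts. Slc45a2 (chr15:11000721-11029233, plus strand) was above 0 in telogen replicate 1 and in anagen replicates 1 and 2, at 5.82, 2.37 and 4.47. These 3 genes were removed by the filter for low values and were not tested.

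The summed level of the 8 melanocyte-restricted genes stood at 87.1, 160 and 131 normalized counts in telogen against 810, 602 and 437 in anagen. Dct made up 75.2% ± 7.35 (SD, n = 3) of that sum in telogen and 88.2% ± 0.527 (SD, n = 3) in anagen, so the sum follows Dct. Since Dct is in the sum, the sum is not a second line of evidence for it, and it was not tested.

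**Figure D3:**
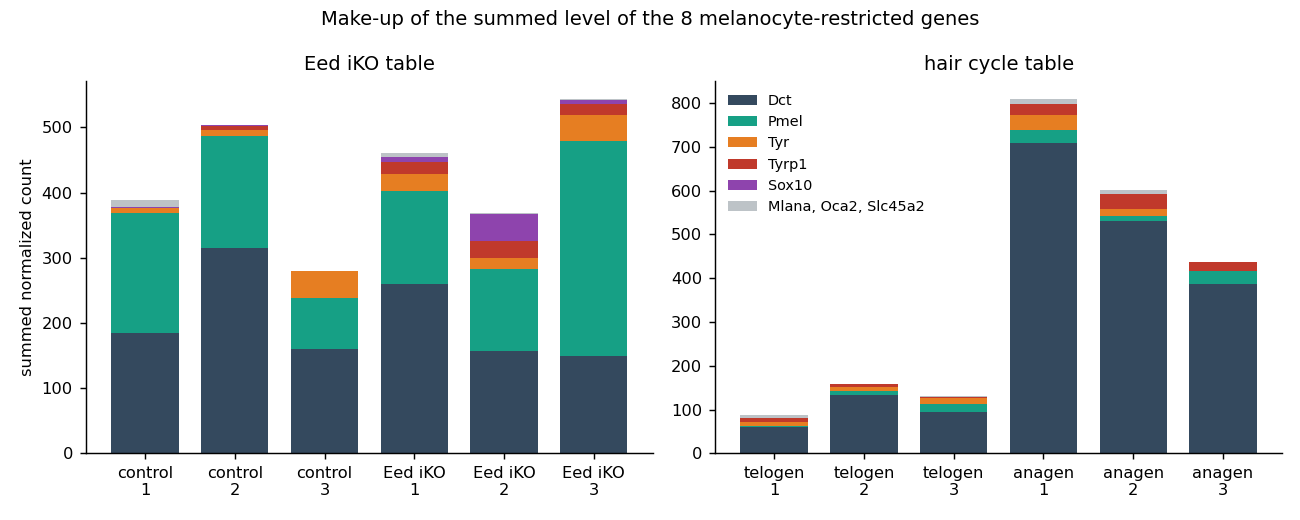
Summed normalized count of the 8 melanocyte-restricted genes in each library, split by gene, with the Eed iKO table on the left and the hair cycle table on the right (bars start at 0, and the scales differ because the tables were normalized apart). Dct makes up most of every hair cycle bar, and the anagen bars (437 to 810) all exceed the telogen bars (87.1 to 160), while control and Eed iKO bars overlap and consist mostly of Dct and Pmel.

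The second comparison asks whether the pigment genes changed in HFSCs of mice with an induced loss of Eed. Tyrp1 and Sox10 were higher in all 3 libraries labelled Eed iKO than in any control library, at counts of at most 31 reads, and Mitf, Dct, Tyr, Pmel and Kit overlapped between the groups. With the thresholds of the methods, here a log2 change past 1.5 with an unadjusted p under 0.05, 1 of the 6 pigment genes tested was called (Tyrp1, higher), where 1.75% of the 15008 genes tested were called. At an adjusted p under 0.05 in limma, 0 of the 6 passed, where 0.0267% of all genes (4 genes) did. At an unadjusted p under 0.05 in limma there was 1 of the 6, beside 2207 of the 15008 genes. Tyrp1 passed the filter on low values through the Eed iKO libraries alone, with 0 of the 3 control libraries at the minimum, so the filter favoured a difference and the count of 1 is no support for one. The quasi-likelihood test of edgeR on the recovered reads gave the same counts for the pigment genes, with 243 of all genes called and 5 past the adjusted test. DESeq2 on these reads called none of the 6 and had 0 with an unadjusted p under 0.05, and it gave no adjusted p for Tyrp1, Tyr and Kit. Over all genes DESeq2 called 255 and had 673 at an adjusted p under 0.05, against 263 and 4 in limma. At an unadjusted p under 0.05 DESeq2 had 2395 of all genes and edgeR had 2153. The groups were apart for 1 of the 6 (Tyrp1), and for 20.2% of all genes. The median log2 change of the 6 was 0.61, and that of all genes tested was 0.00. Tyrp1 is among the 6, so neither this median nor the count of groups apart is support for a difference.

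The control libraries held 0, 6 and 0 reads of Tyrp1 in replicates 1, 2 and 3, and the Eed iKO libraries 16, 19 and 17 reads. As normalized counts these are 0, 6.50 and 0 in control and 17.2, 25.2 and 16.8 in Eed iKO. The groups were apart, and control replicate 2 alone carried Tyrp1 reads. At 0 reads, a library allows up to 3 reads, which is 2.08 normalized counts in control replicate 1 and 2.72 in control replicate 3. The ratio of the summed reads, scaled for the size factors, was 11.2 with a 95% exact interval of 4.79 to 31.8 that covers counting error only. This interval leaves out the spread between libraries. It was computed only for Tyrp1 and Sox10, whose groups were apart, so it is no support for a difference. The log2 change was 3.38 (SE 1.14, limma adjusted p = 0.208). The call was lost without Eed iKO replicate 2 (log2 change 3.20, unadjusted p = 0.054 from limma) and with DESeq2 (3.23, unadjusted p = 0.082).

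Dct had 185, 315 and 160 normalized counts in control and 259, 157 and 149 in Eed iKO, with a log2 change of -0.21 (SE 0.42, limma adjusted p = 0.858). Control replicate 2 was highest, and without it the log2 change was 0.08. Tyr had 7.63, 9.75 and 41.7 in control and 26.9, 17.3 and 40.5 in Eed iKO. Control replicate 3 held as much Tyr as Eed iKO replicate 3, and the log2 change was 0.81 (SE 0.85, limma adjusted p = 0.713). Pmel had 184, 171 and 78.0 in control and 143, 126 and 329 in Eed iKO. Eed iKO replicate 3 was the highest, and the log2 change of 0.42 (SE 0.52, limma adjusted p = 0.752) was -0.01 without it. Among the 3 enzymes, only Dct had a single highest library, control replicate 2. Tyr had 46 reads in control replicate 3 and 41 in Eed iKO replicate 3, and Tyrp1 had 16, 19 and 17 in Eed iKO. At such counts the order of these libraries was not resolved.

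Mitf had 8646, 7316 and 8843 normalized counts in control and 8150, 7560 and 8294 in Eed iKO, on 5693 to 12462 reads per library. It had the smallest SE of the genes tested in the set, and its log2 change was -0.04 (SE 0.13, limma adjusted p = 0.912). Sox10 was covered by 1 read in each control library and by 7, 31 and 6 reads in Eed iKO. The values were 0.694, 1.08 and 0.907 normalized counts in control and 7.53, 41.2 and 5.93 in Eed iKO, with Eed iKO replicate 2 far above the others. The ratio of the summed reads was 18.9, with a 95% exact interval of 6.05 to 95.02 for counting error only. Of the 44 Eed iKO reads, 31 came from replicate 2, and the interval leaves out this spread. As for Tyrp1, the interval is no support for a difference. Sox10 did not pass the filter on low values, and without the filter its log2 change was 2.84 (SE 0.94, adjusted p = 0.224 from limma), past the thresholds of the methods. Kit had 0.694, 19.5 and 7.25 in control and 71.0, 11.95 and 6.92 in Eed iKO. Eed iKO replicate 1 stood apart with 66 of the 82 Kit reads of its group, and the log2 change was 1.56 (SE 1.20, limma adjusted p = 0.582).

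Mlana was covered by 0 control reads and 3 Eed iKO reads, and Oca2 by 0 and 4 reads, all 4 in Eed iKO replicate 1. Slc45a2 had 16 control reads, all in replicate 1, and 2 Eed iKO reads. These 3 genes were at 0 in 4, 5 and 4 of the 6 libraries, at a depth where a count of 0 allows 2.08 to 3.98 normalized counts. Differences at that level were not detectable at this depth. The summed level of the 8 melanocyte-restricted genes was 389, 504 and 280 normalized counts in control and 460, 368 and 544 in Eed iKO. The groups overlapped, and Dct and Pmel together made up most of the sum in each library. Sox10, which Schwann cells also use, made up 11.2% of it in Eed iKO replicate 2.

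**Figure D4:**
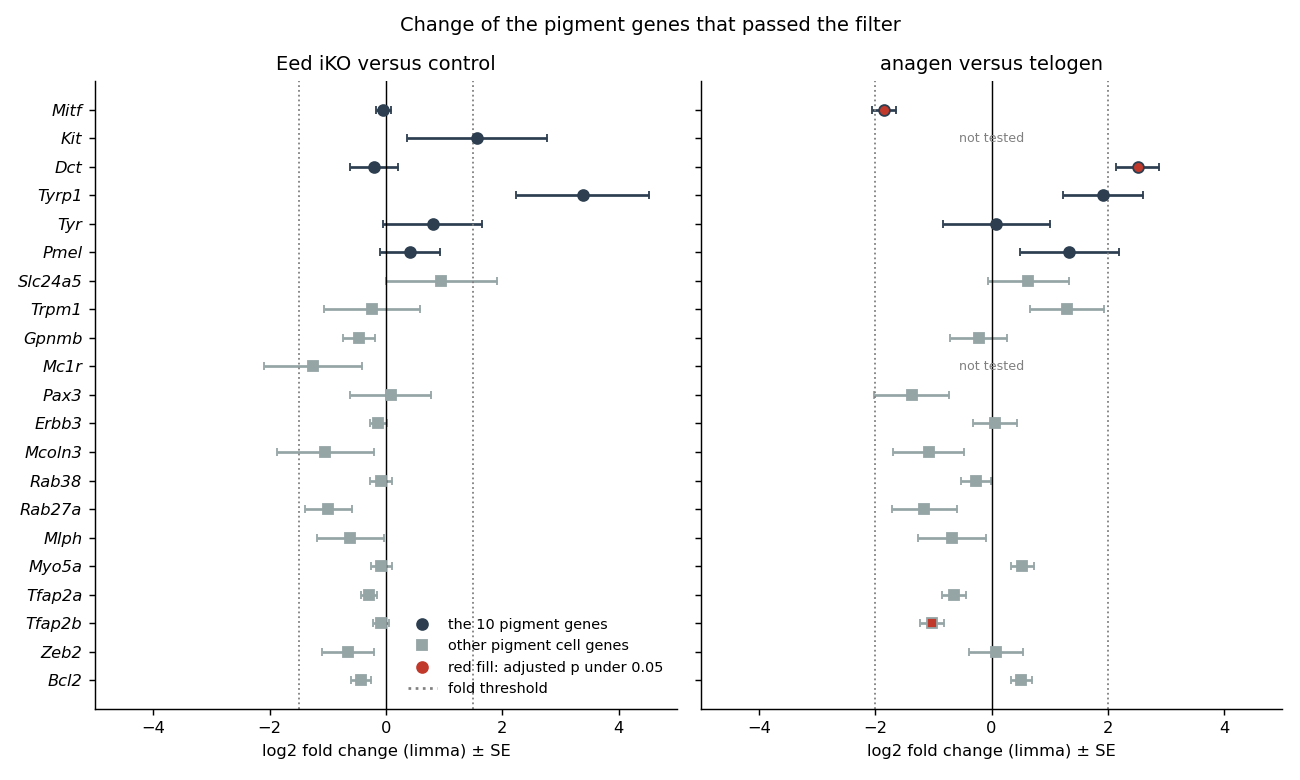
Log2 fold changes from limma with their standard errors (bars) for the pigment genes (circles) and the other pigment cell genes (squares) that passed the filter, with Eed iKO over control on the left and anagen over telogen on the right. Dotted lines are the fold thresholds of 1.5 and 2, and the red symbols, adjusted p under 0.05, are Dct, Mitf and Tfap2b in the hair cycle, with none in Eed iKO.

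Other genes of pigment cells were read from a list of 19, of which 17 were analysed in the Eed iKO table and 15 tested. At an adjusted p under 0.05, 0 of the 15 passed in limma and 0 in edgeR or DESeq2, and 2 had an unadjusted p under 0.05 in each of the 3 tools. In the hair cycle table, 14 were tested and 1 passed the adjusted test, where 11.6% of all genes did. This gene was Tfap2b, an AP-2 factor also used by keratinocytes. It fell from 14001 ± 2143 to 6910 ± 1457 normalized counts (SD, n = 3) in anagen, a log2 change of -1.03 (limma adjusted p = 0.00914), a call lost without anagen replicate 1 (limma adjusted p = 0.060) or 2 (0.056). Per kb, Tfap2b and Tfap2a led the list in both tables, followed by the survival gene Bcl2 in the Eed iKO table and by Rab38, a Rab GTPase of melanosome traffic, in the hair cycle table. Tfap2a stood at 2448 ± 69.6 normalized counts in telogen against 1589 ± 338 in anagen (SD, n = 3, limma adjusted p = 0.066). The median log2 change of the tested genes of the list was -0.25 in anagen and -0.29 in Eed iKO.

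The machinery that builds melanosomes and related organelles in many cell types was measurable in every group. All 22 genes of this list were tested in both tables, led per kb by Bloc1s1, Snapin and Ap3b1, subunits of the BLOC-1 and AP-3 trafficking complexes. In anagen 1 of the 22 passed the adjusted test, where 11.6% of all genes did. It was Hps3, a subunit of BLOC-2, which rose from 796 ± 108 to 1302 ± 73.3 normalized counts (SD, n = 3), a log2 change of 0.72 (limma adjusted p = 0.043). That call held in 1 of the 6 fits without a library, the one without telogen replicate 1. In Eed iKO, 0 of the 22 passed the adjusted test in limma, edgeR or DESeq2, with 1, 2 and 2 genes at an unadjusted p under 0.05. The median log2 change of the list was 0.02 in anagen and -0.14 in Eed iKO.

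Among 16 genes by which the follicle signals to melanocytes, 2 of the 11 tested were higher in anagen by both call rules, beside 5.10% of all genes called in either direction by the thresholds of the methods and 11.6% past the adjusted test. Tgfb3, a TGF-β ligand, stood at 177, 124 and 84.8 normalized counts in telogen against 1157, 1011 and 1094 in anagen, a log2 change of 3.13 (SE 0.30, limma adjusted p = 0.000128). Edn2, an endothelin ligand of the melanoblast receptor Ednrb, had only zeros in telogen, where it is listed at 0 in each of the 3 libraries, and 11.02, 30.2 and 34.4 in anagen (limma adjusted p = 0.00761, and 0.065 and 0.053 without anagen replicates 2 and 3). It passed the filter through the anagen libraries alone, so its count among the 2 is no support for a difference. Kitl, the ligand of Kit, had 803, 373 and 321 in telogen and 1151, 929 and 735 in anagen. Telogen replicate 1 lay within the anagen range, and the log2 change was 1.01 (SE 0.34, limma adjusted p = 0.081). The receptor of Edn2 itself, Ednrb, had 3.11, 1.19 and 1.35 in telogen and 29.5, 19.1 and 1.11 in anagen, and it was not tested. In Eed iKO, 0 of 11 signal genes passed the adjusted test in limma, edgeR or DESeq2, with 1 at an unadjusted p under 0.05 in each tool, and Kitl had a log2 change of 0.31 (limma adjusted p = 0.663). Per kb, Col17a1, a bulge collagen on which melanocyte stem cells depend, and the transcription factor Nfib led the list in both tables, with Atrn next in the Eed iKO table and Tgfb3 in the hair cycle table. Col17a1 stood at 38085 ± 2294 normalized counts in telogen against 26522 ± 3205 in anagen (SD, n = 3, limma adjusted p = 0.083), and Nfib 33534 ± 2673 and 33433 ± 3454.

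Markers of other cells that the gate could hold were read beside these values. Of 7 mast cell markers in the hair cycle table, 3 were listed at 0 in every library (Tpsb2, Fcer1a and Ms4a2) and Cpa3 was above 0 in telogen replicate 2 only, at 15.6 normalized counts. Hdc, which makes histamine, was the one mast cell gene tested in either table. It was called lower in anagen (log2 change -2.83, limma adjusted p = 0.097), as Mitf was lower, and higher in Eed iKO (1.62, limma adjusted p = 0.225), where Mitf overlapped between the groups, and its part in the Mitf values was not tested. The call was lost without anagen replicate 2 or telogen replicate 1 in the hair cycle, and without control replicate 1, Eed iKO replicate 1 or Eed iKO replicate 3 in the Eed iKO table. Summed over the list, mast cell markers ran from 18.1 to 79.9 in telogen and from 2.29 to 21.1 in anagen, against 2801 to 3125 and 685 to 995 for Mitf. In the Eed iKO table only 2 of the 7 markers were listed. Their sums ran from 19.4 to 49.8 in control and from 83.7 to 118 in Eed iKO, without overlap. Hdc made up most of these sums and of the telogen sums, so they follow 1 gene. Of 7 Schwann cell markers, Cdh19 was listed at 0 in every hair cycle library, and in the Eed iKO table it had at most 3.98 normalized counts. The list summed to 169 to 189 in telogen, 133 to 181 in anagen, 1053 to 1158 in control and 1330 to 1529 in Eed iKO. The sum was higher in every Eed iKO library than in any control library, as Sox10 was. Of its 4 genes tested in that table, the groups were apart for 1, beside 20.2% of all genes. In limma, DESeq2 or edgeR, 0 of these 4 passed the adjusted test. The part of Schwann cells in the Sox10 values was not tested. With unadjusted p-values, limma and edgeR had 0 of these 4 under 0.05 and DESeq2 had 1.

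Immune and mesenchymal markers were read in the same way. The Langerhans cell gene Cd207 was at 0 in all control libraries and at 18.3, 13.3 and 23.7 normalized counts in Eed iKO. It had passed the filter through the Eed iKO libraries alone (limma adjusted p = 0.130). Of the 4 leukocyte genes tested in that table, the groups were apart for 1 (Cd207), beside 20.2% of all genes, and the others overlapped. The leukocyte list summed to 147 to 344 in control, 192 to 544 in Eed iKO, 94.5 to 112 in telogen and 82.7 to 116 in anagen. Of 6 fibroblast and dermal papilla markers, Col1a1 and Dcn rose in anagen by both call rules (log2 changes 2.06 and 4.05, limma adjusted p = 0.00928 and 0.011), beside Dct, and Dcn passed the filter through the anagen libraries alone. Col1a2 had means of 393 in telogen and 185 in anagen with no overlap (limma adjusted p = 0.108), and Pdgfra had a log2 change of -1.02 (limma adjusted p = 0.586). The adjusted call of Dcn was lost without anagen replicate 1 or 2 and that of Col1a1 without anagen replicate 3, and Col1a1 and Msx1 fell short of the thresholds of the methods without anagen replicate 3 or telogen replicate 2. The list summed to 316 to 649 in telogen and 469 to 628 in anagen, and to 1688 to 3279 in control and 1293 to 1930 in Eed iKO. Among 6 hair matrix genes, Msx1 was called higher in anagen (2.00, limma adjusted p = 0.1002) and Msx2 fell (-1.60, limma adjusted p = 0.00806). The matrix list summed to 779 to 855 in telogen and 518 to 679 in anagen, and to 3735 to 5120 in control and 3818 to 4086 in Eed iKO. Endothelial markers summed to 67.3 to 134 in telogen, 59.8 to 105 in anagen, 416 to 627 in control and 332 to 652 in Eed iKO, and Merkel cell markers to at most 1.27 in the hair cycle table and 5.31 in the Eed iKO table. The epidermal list summed to 7742 to 39579 in control, 4444 to 57387 in Eed iKO, 7613 to 15205 in telogen and 4138 to 12629 in anagen. The part of these cells in the pigment values was not tested.

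**Figure D5:**
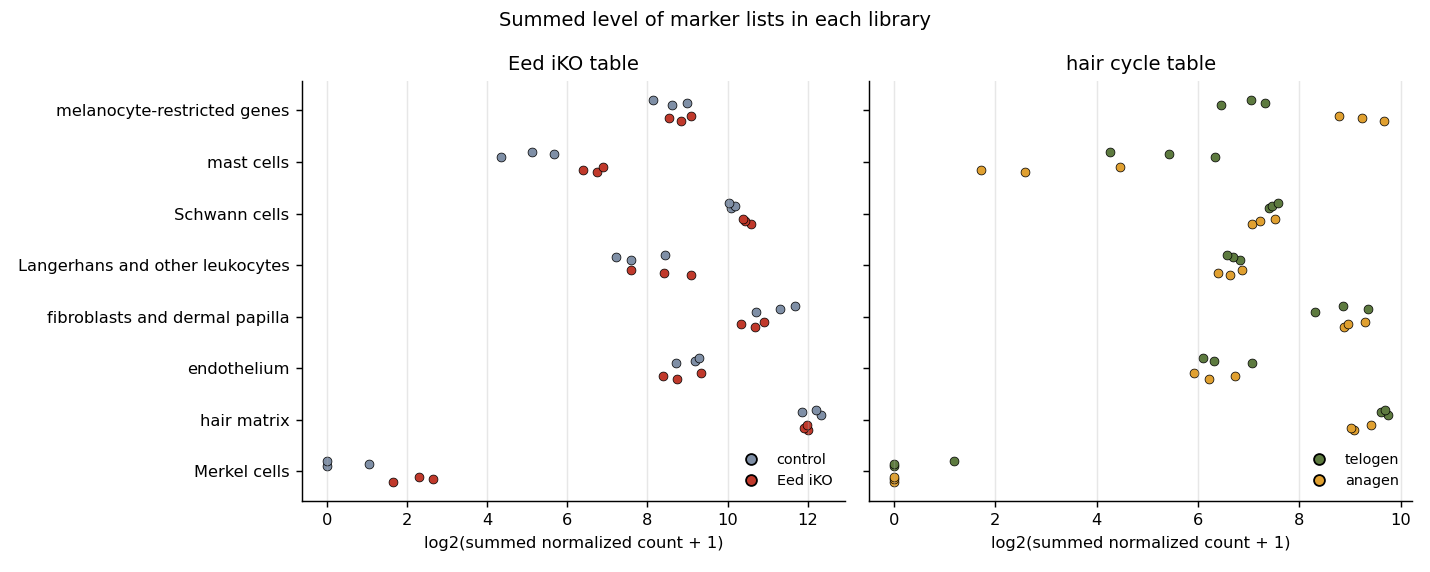
Log2(summed normalized count + 1) of the 8 melanocyte-restricted genes and of marker lists of other cell types in each library (points), by group, with the Eed iKO table on the left and the hair cycle table on the right. The melanocyte sum is apart only in the hair cycle, and Merkel cell markers lie near 0. Mast cell markers sum to 18.1 to 79.9 in telogen, 2.29 to 21.1 in anagen, 19.4 to 49.8 in control and 83.7 to 118 in Eed iKO.

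The genes whose pattern over the 12 libraries was most like the summed level of the 8 melanocyte-restricted genes were ranked among 13362 genes that passed the filter in both tables, with each table centred on its own mean. With the pigment genes themselves left out, the 10 with the highest Pearson correlation were Lig1 (r = 0.96), Tbc1d4, Psma3, Igsf3, Topbp1, Adam9, Ppp1r16a, Ammecr1, Erbin and Gins2 (r = 0.94). Dct, itself part of the sum, had r = 0.95 and ranked 5 of 13362, and Mitf had r = -0.94 and ranked 13346 of 13362. Of the 10 genes, 8 were higher in anagen at a limma adjusted p under 0.05, beside 971 of all 13457 genes tested. The 10 were picked for following a sum that is higher in anagen, so this count is no separate result. The points share libraries, and the 3 anagen libraries lie apart from the 3 telogen libraries in the sum, so the ranking describes these 12 libraries only.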

How the data were processed

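Total RNA of sorted HFSCs was amplified with the Ovation RNA-seq System V2, and per the methods the authors used Kallisto (v0.42.5) to assign reads to the Gencode vM20 transcripts of mm10 and compared groups of protein-coding genes with DESeq2. As deposited by the authors, the signal of a gene is its count scaled with the size factor that DESeq2 gave that library, separately for the hair cycle and Eed iKO tables. The fold changes and p-values of the authors in these tables were not used. Coordinates, exon overlaps and transcript lengths come from GENCODE vM21 (GRCm38), and promoter windows from RefSeq.

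In the Eed iKO table, 100% of the values of each library were whole multiples of 1 constant (tolerance 0.05 of a read), so reads were recovered, 33269583 to 57063586 per library. The hair cycle values were not, and their depth is unknown.

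Samples were grouped by their labels, which name no sequencing batch. Groups were compared with limma (3.58.1, R 4.3.3) with an intensity trend on log2(normalized count + 1), on which changes of low genes come out too small. Genes were filtered with filterByExpr of edgeR (4.0.16) at a minimum count of 10, which left 15008 and 13457 genes, with Benjamini-Hochberg adjustment over all of them. The design had foreseen edgeR for whole counts, and limma for normalized values such as these. As in the methods, a gene was called at an unadjusted p under 0.05 with a log2 change, up or down, past 1.5 in Eed iKO or 2 in the hair cycle. Code was tested on simulated data.

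The members and lists were chosen with earlier results of these data known. Named are every member, genes of the pigment and signal lists past a call or among the 3 with the largest mean level per kb, marker genes past a call or at 0 (except 1 that is not reported here), Kitl, Ednrb, Krt10 and the partners of Pmel beside them, and the 10 genes most like the summed level. Alternatives were no filter on low values, a pseudocount of 0.1, TMM scaling, no intensity trend, leaving out each library, a replicate block, adjusted p with no fold threshold, sums per kb, and DESeq2 (1.42.0) or edgeR on the recovered reads. Protein identity of the enzymes was not analysed here.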

Additional observations from a re-analysis of the deposited data

How the results depend on the processing

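Of the 11 fold changes of the pigment genes, Dct, Mitf and Pmel in the hair cycle and Tyr and Kit in Eed iKO kept their direction in every fit run, and Tyrp1 kept its direction in both comparisons. Without the filter on low values, 425 of 17885 genes and 2 of the 10 pigment genes (Tyrp1 and Sox10) were called in Eed iKO, since more genes were tested. With an adjusted p in place of the thresholds of the methods, 4 genes and 0 pigment genes passed in Eed iKO, and 1556 genes and 2 pigment genes in the hair cycle. DESeq2 on the recovered reads called 0 pigment genes in Eed iKO and had 673 genes at an adjusted p under 0.05 in place of the 4 of limma, as limma had 188 without Eed iKO replicate 3. With a pseudocount of 0.1, 2 pigment genes were called in the hair cycle, as Tyrp1 passed the fold threshold (log2 change 2.08), and the log2 change of Tyr was -7.6e-04. Without the intensity trend, Tyrp1 passed the adjusted test in the hair cycle (adjusted p = 0.049 from limma, with 0.099 to 0.147 in the other fits on all libraries), with 842 genes past that test in place of 1556. Leaving out each library in turn gave 217 to 449 genes and 0 to 1 pigment genes called in Eed iKO, with 410 genes without control replicate 3 and 449 without Eed iKO replicate 3, and 1 to 2 pigment genes in the hair cycle. In the same fits the log2 changes in Eed iKO ran from -0.46 to 0.084 for Dct, from -0.0068 to 0.68 for Pmel and from -0.13 to 0.0076 for Mitf, and that of Tyr in the hair cycle from -0.65 to 1.08. The cause was not tested.

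Same-numbered libraries were not known to share an animal or litter, and their deviations from the group means correlated at 0.039, 0.068 and 0.193 in the Eed iKO table and at -0.035, -0.071 and -0.029 in the hair cycle table. With the replicate block, 331 genes and 1 pigment gene were called in Eed iKO, with 424 genes at an adjusted p under 0.05 in place of 4, and 696 genes and 1 pigment gene in the hair cycle. The block changed no call of a pigment gene.

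Depth limits Tyrp1, Sox10, Mlana, Oca2 and Slc45a2, with at most 31 reads in any library of the Eed iKO table.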
